A study of Arabidopsis thaliana with 8 samples.

Results

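In 627 regions of the Arabidopsis thaliana genome, chromatin was accessible both in lateral organ founder cells and in their neighbours, but over a longer stretch in the neighbours. They were found by joining the transposase hypersensitive sites (THSs), the stretches listed as open by ATAC-seq, of 6 libraries into 26792 regions. Of these, 18768 regions had a THS in all 6 libraries and are called shared. A shared region was taken as broader in the neighbours when its covered length in each GFP- library exceeded that in each GFP+ library and the group means were at least 200 bp apart. This held for 3.34% of the shared regions. The covered lengths of the same libraries chose the regions, so the difference between the groups is described here without a test, and nothing is read from the share itself.

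GFP+ cells were protoplasts sorted by fluorescence from inflorescence apices of DRNL::erGFP ap1cal plants and labelled as lateral organ founder cells (3 libraries). GFP- cells came from the same kind of apices, with the same reporter and the same ap1 and cal mutations, and were labelled as inflorescence meristem cells depleted of founder cells (3 libraries). The reporter is driven by the promoter of DRNL (DORNRÖSCHEN-LIKE), a gene that is active where a lateral organ is about to arise. In ap1 cal plants the apex keeps forming meristems in place of flowers, which multiplies such cells. Each sort pooled the apices of about 700 to 900 plants, and between 95000 and 300000 GFP+ protoplasts or about 300000 GFP- protoplasts were collected per experiment, per the labels' protocols. The GFP- cells are thus labelled by their depletion of founder cells and not as 1 cell type. Depleted does not mean that founder cells were absent from them. The labels call the libraries of a group biological replicates. Both groups are double mutants, and no wild-type plants are among these samples. Sheared-DNA controls (2 libraries) were not analysed here.

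In ATAC-seq a transposase inserts adapters where DNA is not wrapped tightly in nucleosomes, so reads pile up at promoters, enhancers and other sites held open by bound proteins. A site caller turns the pile-up into intervals, and the length of an interval depends on how far the signal stays above background as well as on the DNA that is open. In plants, most such sites lie just before genes or just after them. In a pool of sorted cells, a shorter site in every cell and the same site open in fewer cells cannot be told apart.

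The sort was checked at DRNL itself. THSs covered 55.7%, 59.0% and 66.8% of the gene and its 1000 bp flanks in the GFP+ libraries, against 39.1%, 35.8% and 29.1% in the GFP- libraries. All 3 GFP+ libraries were higher, in the direction of the sort, though sites at the native gene and the reporter's promoter sequence cannot be separated. Neither DRNL nor AP1 nor CAL lay at a region broader in GFP- cells. The lists held 24156, 26216 and 25623 sites in the GFP+ libraries and 26001, 26310 and 28757 in the GFP- libraries, over 17.3 to 19.6 Mb and 17.8 to 19.4 Mb. The sources used here do not give read depth, and the part of depth in any covered length was not tested.

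Over the 627 regions together, the GFP+ libraries covered 571, 616 and 554.2 kb and the GFP- libraries 839.4, 874.3 and 872.9 kb. The means were 580.4 ± 32.0 kb in GFP+ libraries and 862.2 ± 19.8 kb in GFP- libraries (SD, n = 3 each), which is 59.9% and 89.0% of the joint length of the regions. The median region was covered over 700, 800 and 600 bp in GFP+ libraries and over 1100 bp in each GFP- library. Over all shared regions the libraries were alike, with medians of 600, 700 and 600 bp in GFP+ and 600, 600 and 700 bp in GFP- libraries. The total over shared regions was 16.98 ± 0.832 Mb in GFP+ libraries and 16.93 ± 0.391 Mb in GFP- libraries (SD, n = 3 each). Over the shared regions as a whole the groups thus covered similar lengths.

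**Figure D1:**
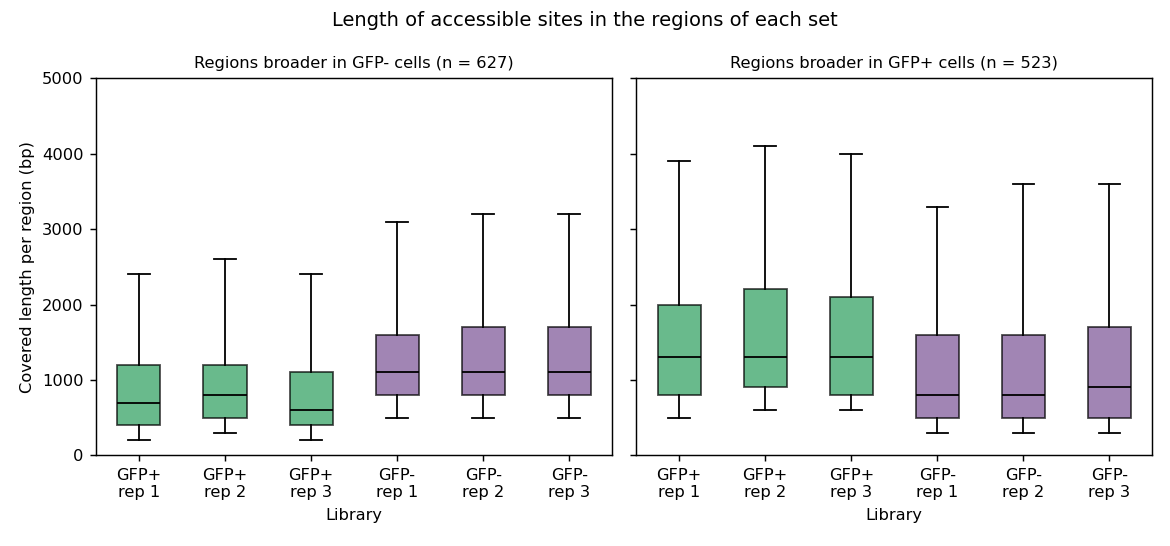
Covered length per region (bp) in each library, for the 627 regions broader in GFP- cells (left) and the 523 regions broader in GFP+ cells (right). Boxes span the quartiles with a line at the median and whiskers run from the 5th to the 95th percentile of regions. In the left panel the GFP+ medians are 700, 800 and 600 bp and each GFP- median is 1100 bp.

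The reverse pattern, each GFP+ library above each GFP- library by the same margin, was met by 523 regions (2.79% of the shared regions). With the margin dropped and any difference allowed, 782 regions (4.17%) were broader in GFP- cells and 714 (3.8%) in GFP+ cells. The 627 regions were wide, their median being 1300 bp, where all shared regions had 800 bp and the 523 had 1400 bp. Their difference in mean covered length, GFP+ minus GFP-, ran from -2133 to -200 bp with a median of -367 bp. In the median region the GFP+ mean was 63.6% of the GFP- mean, and in 114 regions it was under 50%. The lowest ratio was 12.9% and the highest 94.7%. The set thus holds regions with far shorter sites in founder cells beside long regions that lacked only a short piece.

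**Figure D2:**
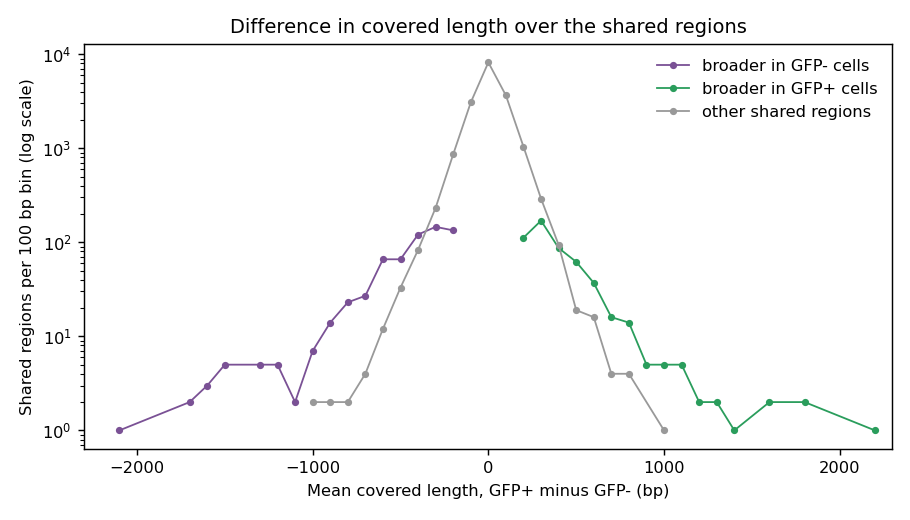
Number of shared regions (log scale) by difference in mean covered length, GFP+ minus GFP- (bp, bins of 100 bp, empty bins not drawn). Regions broader in GFP- cells span -2133 to -200 bp and regions broader in GFP+ cells 200 to 2233 bp, while the other shared regions, whose libraries overlap or whose means are under 200 bp apart, centre on 0.

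Regions at the margin differed little from those left out. NFXL1 (AT1G10170), a zinc finger transcription factor gene, was covered over 500, 400 and 400 bp in GFP+ libraries and 600, 600 and 700 bp in GFP- libraries, just inside at -200 bp. EXT3 (AT1G21310), which encodes an extensin of the cell wall, had 600 bp in each GFP+ library and 900, 700 and 800 bp in GFP- libraries, also at -200 bp, as did a region in AT1G12570. Just outside, at -167 bp, the region at the glycolytic gene GAPC2 (AT1G13440) had 1200, 1100 and 1100 bp in GFP+ libraries and 1300 bp in each GFP- library. Regions at AT3G63210 and at CAT8 (AT1G17120), of the cationic amino acid transporter family, missed the margin by the same amount. In all, 155 regions separated the groups with a difference under the margin.

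The missing stretches lay mostly at the ends of these regions in founder cells and less often in their middle. A window of 100 bp is called GFP- only when it was covered in all 3 GFP- libraries and in no GFP+ library. Such windows were present in 491 of the 627 regions (78.3%) and summed to 121.4 kb. They lay at an outer edge of the region in 417 (66.5%) and in an inner stretch, between parts open in founder cells, in 114 (18.2%). A single edge was the usual form, with 356 regions (56.8%), while both edges were involved in 21 without an inner stretch and in 1 with one, and inner stretches alone were seen in 74 (11.8%). By length, 82.0% of the GFP- only windows were at edges. In the other 136 regions (21.7%) no window was covered in all 3 GFP- libraries and in no GFP+ library. Differences among the libraries of either group can have this effect.

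Among the 523 regions broader in GFP+ cells, windows of the opposite kind lay at an edge in 58.7% and in an inner stretch in 23.9%. Edges held 70.5% of their length. Runs of 400 bp or more were present in 59 of the 627 regions (9.41%) and in 24 of the 523 (4.59%). These are 2 sets chosen by their own lengths and the differences between them were not tested.

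Stretches open in some founder-cell libraries made up more length than those open in none. Of the 756.3 kb that was open in all 3 GFP- libraries within the 627 regions, 472.3 kb (62.4%) was open in all 3 GFP+ libraries too. A further 84.1 kb (11.1%) was open in 2 of the GFP+ libraries, 78.5 kb (10.4%) in 1 and 121.4 kb (16.1%) in none. The median region kept 500 bp open in all 6 libraries, and only 2 of the 627 had no window common to all 6. Each of the 6 libraries had exactly 1 site in 230 regions (36.7%). In those, broader means 1 interval that is longer, not several joined.

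The founder-cell libraries were not equally narrow. GFP+ replicate 3 was the narrowest of its group, ties left out, in 177 regions, replicate 1 in 137 and replicate 2 in 63. GFP+ replicate 2, which has the most sites and the largest covered length of its group, was the broadest in 199. Among GFP- libraries, replicate 1 was the narrowest in 175 regions, against 84 and 88 for replicates 2 and 3. The count moved most without these 2 libraries, the broadest GFP+ and the narrowest GFP- library. Without GFP+ replicate 2 the rule found 1188 regions, and without GFP- replicate 1 it found 989. Of the 627 regions, at least 558 were found again whichever library was left out. The count of regions broader in GFP+ cells was 879 without GFP+ replicate 1, 1055 without GFP+ replicate 3 and 1027 without GFP- replicate 3.

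The authors' site scores, on a scale that is not stated, were ranked within each library. The best site of the median region stood at percentile 49.0, 52.8 and 49.3 in the GFP+ libraries and at 68.6, 71.7 and 72.6 in the GFP- libraries. For all shared regions these were 58.0, 62.1 and 59.7 in GFP+ libraries and 60.2, 60.7 and 64.4 in GFP- libraries. The narrower sites of founder cells were thus also lower in rank than the average shared site of the same libraries, and the wider sites of the neighbours higher. Length and score come from the same reads, so this is a second view of the chosen contrast.

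The largest difference was at AT5G35735 (chromosome 5, 13898801 to 13902000 on TAIR10; gene from 13900695 to 13903218). THSs covered 500, 500 and 700 bp in GFP+ libraries and 2300, 3200 and 2600 bp in GFP- libraries, a difference of -2133 bp. In founder cells a short core lay beside the end of the gene, and in their neighbours the open stretch ran out on both sides, with GFP- only windows of 700 bp at the left edge and 500 bp at the right. AT1G29195 (chromosome 1, 10203001 to 10205100) had the same form around a core of 400 bp in each GFP+ library, against 2100, 2000 and 1800 bp in GFP- libraries. Neither gene has a symbol in the reference table.

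An open stretch was missing from 1 side at several genes. The region at AT1G25530 (chromosome 1, 8966501 to 8968800) was covered over 300, 500 and 300 bp in GFP+ libraries and 1800, 2000 and 2200 bp in GFP- libraries, with 1300 bp of GFP- only windows at its right edge that run from inside the gene into its flank. PLDP1 (AT3G16785; chromosome 3, 5718801 to 5721100) encodes a phospholipase D of the zeta type, which releases phosphatidic acid from membrane lipids. Its region was covered over 400, 500 and 500 bp in GFP+ libraries and 1800, 1900 and 2100 bp in GFP- libraries, with 1100 bp of GFP- only windows on the side away from the gene. These windows lay in separate pieces, with 500 bp in the flank of PLDP1 and the rest farther away. AT3G16800 also lies in the span of the region or within 1000 bp. At GCT (GRAND CENTRAL, AT1G55325), which encodes a subunit of the kinase module of Mediator and acts in embryo patterning, the missing edge of 700 bp lay inside the gene body. The values there were 1500, 1900 and 1000 bp in GFP+ libraries and 2400, 3400 and 3100 bp in GFP- libraries (chromosome 1, 20647301 to 20650800). All these groups stand apart, as the rule demands, but GFP+ replicate 2 was the closest to the neighbours at GCT.

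Elsewhere GFP- only windows lay between sites of founder cells. At AT5G50000 (chromosome 5, 20345101 to 20348600) the GFP+ libraries covered 1600, 2000 and 1000 bp and the GFP- libraries 3100, 3300 and 3200 bp, with 700 bp of GFP- only windows between parts open in at least 1 GFP+ library. Of these windows, 100 bp lay in the flank of AT5G50000 and none in its body. AT5G50010 also lies in the span of the region or within 1000 bp. TDT (AT5G47560; chromosome 5, 19289101 to 19293000) encodes the tonoplast dicarboxylate transporter, which moves malate into the vacuole. It had 2300, 2100 and 1600 bp in GFP+ libraries and 3500, 3500 and 3400 bp in GFP- libraries. Its inner GFP- only windows summed to 700 bp in separate pieces and lay within the gene body. TBL10 (AT3G06080), of the TRICHOME BIREFRINGENCE-LIKE family of wall polysaccharide acetylation, combined 500 bp of GFP- only edge windows with 400 bp of inner ones. The inner windows lay in separate pieces and are inner only because of a short site in GFP+ replicate 2. They hold all the GFP- only windows in the body (10 bp) or flank (390 bp) of TBL10, and the edge windows lay farther away. AT3G06070 also lies in the span of this region or within 1000 bp. The region at TBL10 (chromosome 3, 1832601 to 1835000) was covered over 400, 500 and 300 bp in GFP+ libraries and 1500, 2400 and 2200 bp in GFP- libraries.

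The other 4 of the 12 largest differences, from -1700 to -1333 bp, were long regions that stayed open over 1400 bp or more in every library. They lay at AT1G69680, AT2G20562, AT4G12290 and GILP (AT5G13190), the last named in the reference table for a GSH-induced LITAF domain protein. None of the GFP- only windows of the AT2G20562 region lay in that gene's body or flank, and AT2G20560 also lies in its span or within 1000 bp. At AT1G69680, 100 of 700 bp of GFP- only windows lay in the flank and none in the body. The region at AT1G69680 (chromosome 1, 26207701 to 26212400) lay 710 bp from the gene and was the largest difference among the 627 that did not cross a gene end, with 2300, 2700 and 2000 bp in GFP+ libraries and 3500, 4500 and 4100 bp in GFP- libraries. Of the 12 regions, 11 crossed the end of a gene and 10 had GFP- only windows at an edge.

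**Figure D3:**
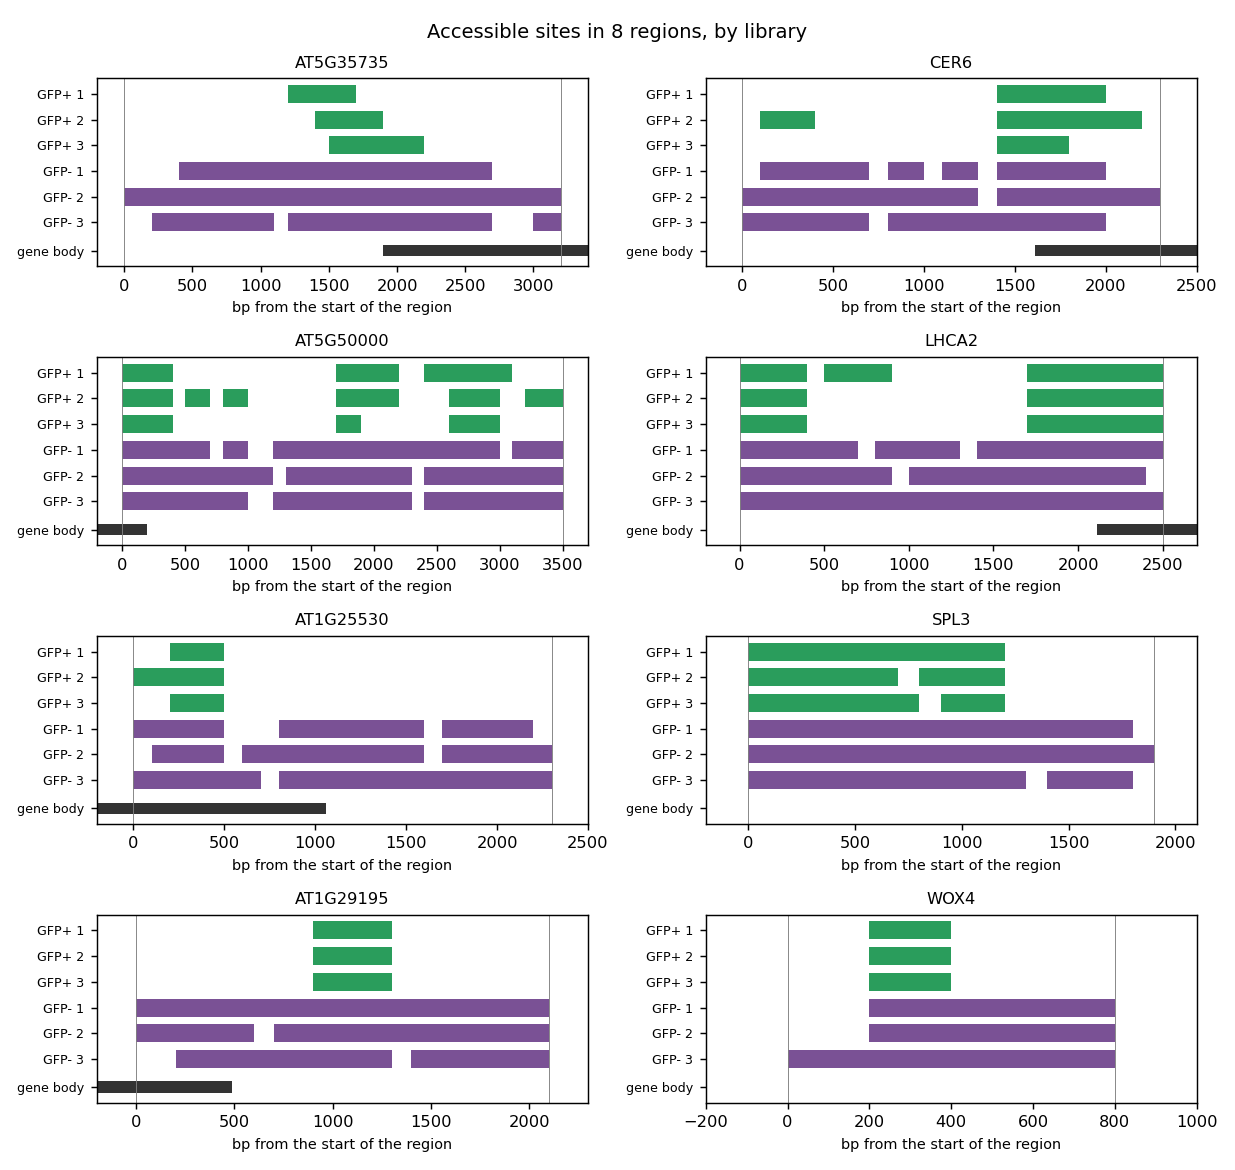
THSs of each library (bars, GFP+ replicates 1 to 3 above GFP- replicates 1 to 3) in 8 regions, by distance from the start of the region (bp), with the named gene's body in black where it reaches the region. At AT5G35735 and AT1G29195 the GFP+ sites form a short core inside the GFP- sites. At AT5G50000 and LHCA2 they leave inner stretches uncovered, at CER6 only GFP+ replicate 2 has a site in the left part, and at AT1G25530, SPL3 and WOX4 they end before the right edge.

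The regions lay at gene ends, as did shared regions in general. Of the 627, 438 (69.9%) crossed an end of a protein-coding gene, against 74.8% of all shared regions. A further 93 (14.8%, against 10.9%) lay outside genes but within 1000 bp of one. Only 31 (4.94%, against 5.87%) lay wholly within a gene body, and 65 (10.4%, against 8.43%) were farther away. By length, 31.0% of the GFP- only windows lay in gene bodies, 42.2% in flanks of 1000 bp, 1.45% in other annotated genes and 25.3% elsewhere. The windows of the same regions that were open in all 6 libraries had nearly the same places, with 32.6% in bodies, 44.1% in flanks, 1.42% in other genes and 21.9% elsewhere. Over all shared regions, the windows open in all 6 libraries were placed to 35.3% in bodies and to 16.8% elsewhere, so both kinds of window in the 627 regions lay somewhat more often away from genes. The 523 regions broader in GFP+ cells shared this trait, with 31.8% of their GFP+ only windows and 30.7% of their windows open in all 6 libraries elsewhere.

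**Figure D4:**
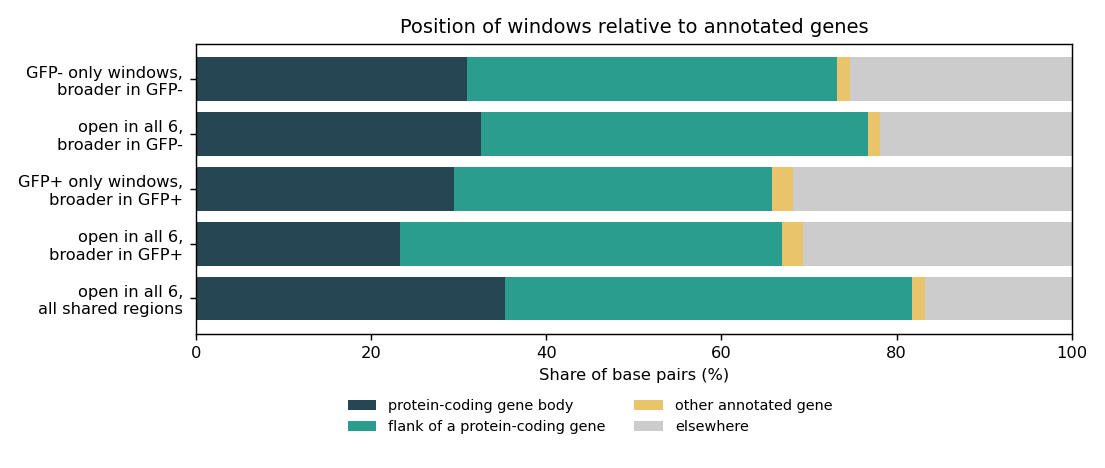
Share of base pairs (%) in protein-coding gene bodies, their 1000 bp flanks, other annotated genes and elsewhere, for windows of the 627 regions broader in GFP- cells, of the 523 broader in GFP+ cells and of all shared regions. GFP- only windows and windows open in all 6 libraries of the 627 regions have 31.0% and 32.6% in gene bodies.

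Missing edges lay on both sides of gene ends. Among 280 regions that crossed a gene end and had GFP- only windows at an edge, these windows lay mostly within the body in 134 (47.9%) and mostly outside it in 145 (51.8%). Within bodies, 378 GFP- only windows had a median distance of 346.5 bp to the nearer gene end, against 254.5 bp for the 1542 windows open in all 6 libraries. For 250 GFP+ only windows of the regions broader in GFP+ cells it was 406 bp. The reference table gives no strand, so the start and the end of a gene are not distinguished here.

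Coverage was aligned on the gene end in the 267 regions that held 1 end of 1 gene. At the end itself 74.2% of the regions were covered in GFP+ libraries and 92.1% in GFP- libraries (means of 3 libraries each, ranges 72.7% to 77.2% and 91.0% to 93.6%). At 500 bp outside the gene the means were 42.3% in GFP+ and 67.2% in GFP- libraries, and at 1000 bp outside 20.2% and 38.8%. At 250 bp within the body they were 34.8% in GFP+ and 58.4% in GFP- libraries, and at 500 bp within 12.7% and 25.0%. Coverage in founder cells was below that of their neighbours on both sides of the gene end. The regions were chosen for being shorter in founder cells, so this direction follows largely from the choice.

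**Figure D5:**
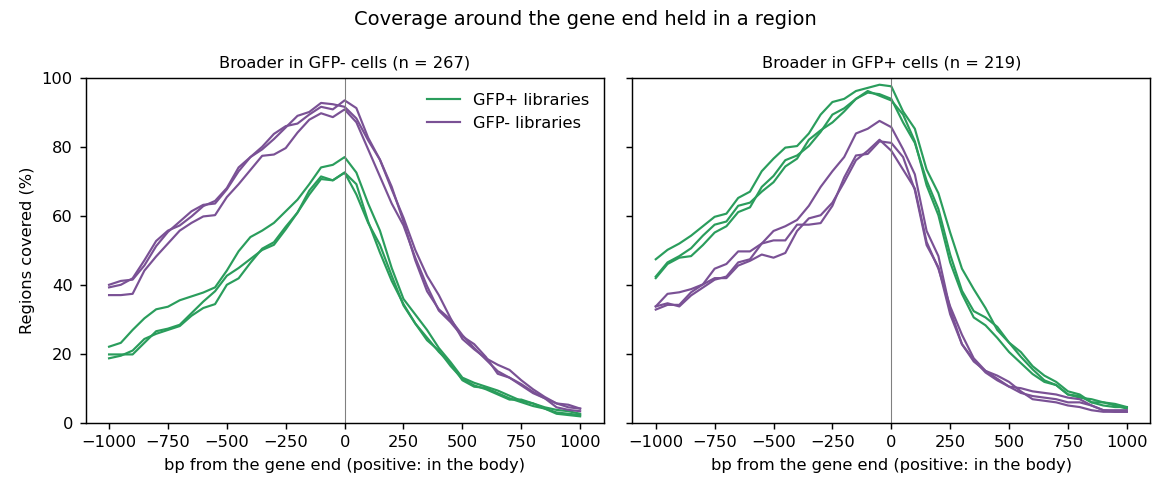
Percent of regions covered by THSs against distance from the gene end (bp, positive within the gene body), 1 line per library, for 267 regions broader in GFP- cells (left) and 219 broader in GFP+ cells (right). On the left the GFP+ lines lie below the GFP- lines throughout, with 74.2% and 92.1% on average at the gene end. On the right they lie above, with 95.1% in GFP+ and 82.0% in GFP- libraries.

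The 627 regions overlapped 636 protein-coding genes and had 929 in their span or within 1000 bp, which is 4.68% of the 19862 genes so placed at shared regions. The 523 regions broader in GFP+ cells had 720 (3.63%), and 13 genes had a region of both kinds. No gene had more than 2 of the 627 regions, and 22 had 2. The genes overlapped had a median length of 2390 bp, close to the 2355 bp at all shared regions. The regions were spread over the genome, from 3.05% of the shared regions of chromosome 4 to 3.58% of those of chromosome 5.

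No gene of organ founding and initiation lay at a region broader in GFP- cells. This list had 31 genes at shared regions, and 16 of them lay at regions broader in GFP+ cells, among them DRNL, LFY, ANT, AS2, AHP6 and the YABBY genes FIL, YAB2, YAB3 and YAB5. Of 14 organ boundary genes at shared regions, 1 lay at a region broader in GFP- cells and 4 at regions broader in GFP+ cells, and the counts were 1 and 3 of 17 shoot meristem genes. The floral list had 2 and 5 of 40, the auxin list 2 and 4 of 30, the cytokinin list 2 and 4 of 38 and the epidermal list 1 and 5 of 32. Over all protein-coding genes at shared regions, 4.68% lay at regions broader in GFP- cells and 3.63% at regions broader in GFP+ cells. The count of 0 in 31 genes is to be read beside the first of these shares. The lists were compiled with earlier results of these data known, and their counts are descriptions.

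The counts of the other lists were as small. Jasmonate and defence genes had 4 of 26 at regions broader in GFP- cells and 1 at a region broader in GFP+ cells. For vascular genes the counts were 3 and 1 of 20, for photosynthesis genes 3 and 1 of 38, and for gibberellin and abscisic acid genes 5 and 4 of 36. Of 29 genes of light response and the clock, none lay at either kind. In all, 24 list genes were at a region broader in GFP- cells, in 10 of 12 lists. With counts this small, each share has to be read beside the 4.68% of all genes at regions broader in GFP- cells and the 3.63% at regions broader in GFP+ cells.

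Hormone genes at these regions included both synthesis and turnover of abscisic acid, a hormone of drought response and dormancy. NCED3 (AT3G14440) and NCED5 (AT1G30100) encode the dioxygenases of its rate-limiting step. At NCED5 the region was covered over 1500, 1600 and 1600 bp in GFP+ libraries and 2000, 2100 and 2100 bp in GFP- libraries, and at NCED3 over 700, 500 and 800 bp in GFP+ libraries and 1100, 1000 and 1000 bp in GFP- libraries. Neither had a GFP- only window, so no 100 bp window set all GFP- libraries apart from all GFP+ libraries. ABA2 (AT1G52340), which acts after them, had a region 751 bp from its body with 800, 800 and 700 bp in GFP+ libraries and 1000, 1100 and 1000 bp in GFP- libraries. That region crosses the end of another gene, and AT1G52342 and AT1G52343 also lie in its span or within 1000 bp.

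CYP707A2 (AT2G29090), the hydroxylase that breaks abscisic acid down, had 2 of the regions. The region beside it (chromosome 2, 12493201 to 12494700) was covered over 900, 800 and 900 bp in GFP+ libraries and 1200, 1500 and 1400 bp in GFP- libraries. That region also reaches the neighbouring gene AT2G29080. The other lay in the body of CYP707A2 (12495801 to 12496500), with 400, 600 and 400 bp in GFP+ libraries and 700 bp in each GFP- library. Around it were 3 further regions, at 12495201 to 12495700, 12497301 to 12497800 and 12499501 to 12500200, with a site in all 3 GFP- and no GFP+ library. The gene and its near flank thus held several separate stretches that were wider or present in the neighbours alone. GA20OX3 (AT5G07200), a gibberellin synthesis gene, had a region 862 bp away with 300, 500 and 500 bp in GFP+ libraries and 700, 800 and 700 bp in GFP- libraries.

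Genes of auxin transport and cytokinin were among the 24. PIN3 (AT1G70940) and PIN4 (AT2G01420) encode auxin efflux carriers best known from the root and from tropic growth. The region at PIN3 was covered over 1500, 1500 and 1300 bp in GFP+ libraries and 1800, 1900 and 1900 bp in GFP- libraries, and the region inside PIN4 over 500, 700 and 500 bp in GFP+ libraries and 800 bp in each GFP- library. In both, all 3 GFP- libraries stood above the GFP+ libraries, by a small margin at PIN4. ARR9 (AT3G57040), a response regulator that dampens cytokinin signalling, had 2200, 2500 and 2200 bp in GFP+ libraries and 2900, 3300 and 3100 bp in GFP- libraries. LOG5 (AT4G35190), which activates cytokinin, had 1500, 1600 and 1600 bp in GFP+ libraries and 2000, 1800 and 1900 bp in GFP- libraries, while LOG3 and LOG4 lay at regions broader in GFP+ cells.

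Jasmonate genes covered synthesis, repression and response. LOX3 (AT1G17420) and LOX4 (AT1G72520) encode lipoxygenases of jasmonate synthesis, and their regions overlapped 3421 and 3556 bp of the gene bodies. LOX3 had 3500, 3800 and 3300 bp in GFP+ libraries and 3900, 4000 and 4200 bp in GFP- libraries, and LOX4, at the margin, had 3400, 3400 and 3500 bp in GFP+ libraries and 3600, 3600 and 3700 bp in GFP- libraries. The repressor gene JAZ6 (AT1G72450; chromosome 1, 27275801 to 27279400) had 2400, 2600 and 2400 bp in GFP+ libraries and 3400 bp in each GFP- library, with an edge of 700 bp missing away from the gene. JAZ6 ends at 27276562, and none of the GFP- only windows of this region lay in its body or within 1000 bp of it. MYC4 (AT4G17880), a transcription factor that JAZ proteins hold back, had 600, 900 and 400 bp in GFP+ libraries and 1100, 1400 and 1100 bp in GFP- libraries. Its relative MYC2 lay at a region of the opposite kind.

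Genes of differentiated tissues were also present. CER6 (AT1G68530; chromosome 1, 25710801 to 25713100) encodes the elongase of very long chain fatty acids for cuticular wax and is expressed in the epidermis. Its region was covered over 600, 1100 and 400 bp in GFP+ libraries and 1600, 2200 and 1900 bp in GFP- libraries, and 700 bp of windows outside the gene were covered in GFP- cells alone. On that side GFP+ replicate 2 had 1 short site and the other GFP+ libraries had none. Of the 700 bp, 500 bp lay in the flank of CER6, and AT1G68520 and AT1G68526 also lie in the region's span or within 1000 bp. The wax gene CER1 and the leaf hair gene GL1, also epidermal, lay at regions broader in GFP+ cells. LHCA2 (AT3G61470; chromosome 3, 22743401 to 22745900) belongs to the light-harvesting complex of photosystem I. It had 1600, 1200 and 1200 bp in GFP+ libraries and 2300, 2300 and 2500 bp in GFP- libraries. Its GFP- only windows, 700 bp in all, lay in separate inner pieces. Of these, 500 bp lay in the flank of LHCA2 and none in its body, and AT3G61460 also lies in the region's span or within 1000 bp.

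The small subunit genes of Rubisco showed small differences. RBCS1A (AT1G67090) had 1000, 1100 and 1000 bp in GFP+ libraries and 1200, 1400 and 1200 bp in GFP- libraries. The region overlapped 143 bp of RBCS1A, and AT1G67080 also lies in its span or within 1000 bp. Its GFP- only windows, 200 bp at the left edge, lay outside RBCS1A, with 100 bp of them in the 1000 bp flank. RBCS3B (AT5G38410) had 300 bp in each GFP+ and 500 bp in each GFP- library. RBCS3B also held a region seen in the 3 GFP- libraries alone (chromosome 5, 15376701 to 15377300). Small subunit genes are close in sequence, and RBCS3B stands in a cluster of such copies on chromosome 5, so reads could be placed at the wrong copy and its values are uncertain.

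Vascular genes had regions of modest size. SUC2 (AT1G22710), the sucrose carrier of phloem companion cells, had 500, 400 and 400 bp in GFP+ libraries and 700, 600 and 600 bp in GFP- libraries. PXY (AT5G61480), the receptor kinase that keeps cambium cells dividing, had 500 bp in each GFP+ library and 700, 900 and 1000 bp in GFP- libraries. NST2 (AT3G61910), a NAC gene of secondary wall formation, had a region 706 bp away with 800, 900 and 500 bp in GFP+ libraries and 1100, 1300 and 1400 bp in GFP- libraries. That region lies nearer, at 522 bp, to AT3G61900, of the small auxin-induced SAUR genes. At WOX4 (AT1G46480), a homeobox gene of the vascular cambium that stood in the meristem list, the region lay 924 bp from the gene (chromosome 1, 17234801 to 17235600). It was covered over 200 bp in each GFP+ library and over 600, 600 and 800 bp in GFP- libraries, so the right edge of 400 bp was open in GFP- cells alone.

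Markers of other cell types were read over their whole lists, as the mean share of the gene and its flanks covered by THSs. The 28 vascular genes had 18.6% to 20.6% in GFP+ libraries and 18.9% to 20.9% in GFP- libraries, and 8 of them had no THS in any library, among them APL of the phloem and the secondary wall genes CESA4, IRX1 and IRX3. The 41 photosynthesis genes had 26.9% to 31.9% in GFP+ libraries and 30.9% to 32.2% in GFP- libraries, and each had a THS in at least 1 library. The groups overlapped for both lists. The 33 epidermal genes had 29.7% to 31.3% in GFP+ libraries and 27.3% to 29.0% in GFP- libraries, with the GFP+ libraries all higher, although CER6 went the other way. The part of the mixture of cell types in the named regions was not tested.

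Genes of flowering and of the boundary were single cases. SPL3 (AT2G33810; chromosome 2, 14302301 to 14304200), which promotes flowering and is a target of miR156, had a region 801 bp away with 1200, 1100 and 1100 bp in GFP+ libraries and 1800, 1900 and 1700 bp in GFP- libraries. GFP- only windows of 500 bp, with a short break, lay at the right edge of the region, on the side of SPL3. The region also reaches the neighbouring gene AT2G33800. TOE1 (AT2G28550), a flowering repressor of the AP2 family, had 300, 500 and 300 bp in GFP+ libraries and 700 bp in each GFP- library. PTL (AT5G03680; chromosome 5, 955801 to 957900), a trihelix factor that limits growth between sepals, had 1400, 1300 and 1000 bp in GFP+ libraries and 1800, 1900 and 1800 bp in GFP- libraries.

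Across 22 gene families sorted by symbol, 57 genes lay at these regions, in 19 families. NAC transcription factors had 7 of 76 genes at shared regions (2 at regions broader in GFP+ cells), Aux/IAA repressors 4 of 27 (1), glutathione transferases 5 of 40 (2) and the wall-loosening XTH genes 3 of 23 (0). AGAMOUS-LIKE MADS-box genes had 0 of 54, against 8 at regions broader in GFP+ cells, and auxin response factors 0 of 14, against 2. MYB genes had 5 of 79 (7), WRKY genes 4 of 55 (2), SAUR genes 4 of 46 (4) and cytochrome P450 genes 7 of 144 (7). Over all genes the shares were 4.68% and 3.63%, and several families lay near them, such as the cytochrome P450 genes with 4.86% in both. The families were not tested, and the genes named here were picked after their values had been seen.

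Some transcription factor and enzyme genes had large differences. KNAT4 (AT5G11060; chromosome 5, 3506201 to 3510300), a KNOX homeobox gene of the class found in growing and mature organs, was outside the 12 largest. It had 2200, 2300 and 2300 bp in GFP+ libraries and 3300, 4000 and 3400 bp in GFP- libraries, a difference of -1300 bp, with 700 bp of GFP- only windows at its left edge. LBD1 (AT1G07900; chromosome 1, 2439101 to 2441900), of the LATERAL ORGAN BOUNDARIES domain family, had 1500, 1800 and 1100 bp in GFP+ libraries and 2600, 2700 and 2600 bp in GFP- libraries, 670 bp from the gene. The 700 bp edge facing the gene was open in GFP- cells alone, and a further region with sites in the 3 GFP- libraries only crossed the near end of the gene (2442301 to 2442800). XTH6 (AT5G65730), an enzyme gene that cuts and rejoins xyloglucan, had 1000, 1400 and 400 bp in GFP+ libraries and 2000, 2000 and 1900 bp in GFP- libraries. TIP2 (AT3G26520), a water channel of the vacuole membrane, had 500, 600 and 500 bp in GFP+ libraries and 1200, 1900 and 1400 bp in GFP- libraries. GFP+ replicate 3 was far below the other 2 at XTH6, while the 3 were alike at TIP2.

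MYB106 (AT3G01140), which acts in leaf hair and cuticle development, had 200, 500 and 400 bp in GFP+ libraries and 1200, 900 and 1300 bp in GFP- libraries. SAUR36 (AT2G45210), a small auxin-induced gene linked to leaf senescence, had 400, 400 and 500 bp in GFP+ libraries and 1300, 1000 and 1000 bp in GFP- libraries. The same region lies within 1000 bp of the pectin methylesterase gene AT2G45220. Neighbouring pairs share a region elsewhere too, among them GSTU4 with GSTU5 and CYP706A4 with CYP706A5, so counts of family genes exceed counts of regions. Of 159 microRNA genes at shared regions, 6 were at these, beside 4.68% of the protein-coding genes so placed. They were MIR159b, whose miRNA targets MYB genes, MIR827, known from the phosphate response, MIR405b, MIR848, MIR2936 and MIR5023. Their number was not tested.

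Regions seen in GFP- cells alone lay near a minority of the 627 regions. Of the 627 regions, 84 (13.4%) had within 5000 bp a region with a THS in all 3 GFP- libraries and in no GFP+ library, of which there were 562. The same was true of 5.47% of all shared regions and of 2.87% of the 523 regions broader in GFP+ cells. The 112 regions seen in GFP+ cells alone were that close to 0.319% of the 627 regions, to 1.3% of the shared regions and to 5.16% of the 523. Both kinds of region come from the same lists, and this closeness was not tested.

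The authors' deposited table lists genes with differential THSs, under the names dTHS-up and dTHS-down. Which population these names refer to is not stated in the sources used here. Of 375 protein-coding genes listed as dTHS-down in the authors' deposited table, 142 (37.9%) had 1 of the 627 regions in their body or within 1000 bp, and 3 (0.8%) had 1 of the 523. Of 113 listed as dTHS-up there, 1 had 1 of the 627 regions and 53 (46.9%) had 1 of the 523. Seen from the regions, 111 of the 627 (17.7%) had a dTHS-down gene of the authors' deposited table so placed, against 2.07% of all shared regions. The table was made from the same libraries and the sources used here do not give its threshold, so this is no independent check. Among the 12 largest differences 8 had such a gene, and among the 24 list genes CYP707A2, CER6, RBCS3B and MYC4 were themselves listed.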

How the data were processed

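ATAC-seq libraries of sorted GFP+ and GFP- protoplasts (3 each) were used as deposited. The submitters' processing notes name SICER, BWA 0.7, Picard 1.105, SAMtools 0.1.19 and bedtools 2.17.0, and the TAIR10 genome. What each tool did, the filters, any shift of read ends and the settings of the site calls are not stated in the sources used here. The authors deposited 1 list of sites per library, with a score per site on an unstated scale, which was used only to rank sites within a library. The deposited gene table holds identifiers (unit: other) and no values. All sites span whole windows of 100 bp, their last base included, and positions are printed counting from 1. No read counts were at hand, so depth is unknown.

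Sites of all 6 lists were merged where they touched or overlapped, and covered length was summed per region and library (Python 3.11.15, numpy 2.4.6, pandas 2.3.3). The code was tested on simulated data. No p-values were computed, because the covered lengths chose the regions. Protein-coding genes came from a RefSeq table of assembly TAIR10.1, which keeps the nuclear chromosome sequences of TAIR10. It gives neither strand nor exons, so 1000 bp flanks were taken on both sides and exonic, intronic and UTR positions are not told apart. Genome sequence was not used here. Of 402 list symbols 387 matched 1 gene. A synonym that is another gene's symbol was not used for the families.

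The regions, the 12 lists and the 22 families were chosen with earlier results of these data known. Genes were named by rule: the 12 largest differences, the list genes with a GFP- only window in the body or flank (13), and 3 regions on each side of the threshold. Other genes were named after their values had been seen. A planned choice of genes by promoter sequence could not be applied. Alternatives were other margins, joining distances, equal numbers or lengths of top-scoring sites, single-site regions, overlapping groups and leaving out each library.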

Additional observations from a re-analysis of the deposited data

How the results depend on the processing

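The counts of regions broader in GFP- and in GFP+ cells (627 and 523) depended on the margin and on how strictly the groups had to separate. They were 300 and 202 with a margin of 400 bp, 230 and 179 for regions with exactly 1 site in each library, and 1398 and 1462 when the groups were allowed to overlap. With top-scoring sites up to the same covered length in each library, the counts were 488 and 546, so the larger count changed sides, as it also did with overlapping groups. Leaving out 1 library gave 757 to 1188 and 589 to 1055, since the rule then asks fewer libraries to separate. The larger count also changed sides without GFP+ replicate 1 (821 and 879), GFP+ replicate 3 (758 and 1055) or GFP- replicate 3 (757 and 1027). The share of regions with GFP- only windows at an edge (66.5%) was 62.4% when sites up to 200 bp apart were joined, 85.7% for regions with 1 site in each library, 35.6% with overlapping groups and 70.9% to 73.4% with 1 library left out. The share of GFP- only windows in gene bodies (31.0%) was 27.5% and 27.6% with margins of 300 and 400 bp, 35.4% for regions with 1 site in each library and 33.5% to 38.1% with 1 library left out. Under the other alternatives that kept all libraries, including equal numbers of top-scoring sites, the counts ran from 439 to 782 and from 354 to 714, and the shares from 66.1% to 69.3% and from 28.8% to 32.8%. The causes were not tested. No paired analysis was possible because the result comes from no test, and the labels leave it unsaid whether libraries with the same number share a sort. Read depth per library is not known, so how far it limits the covered lengths was not tested.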
